A study of Mus musculus with 4 samples.

Results

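Integrins and laminins are the receptors and the main cell-binding ligands of the basement membrane on which the epidermis rests, and they were followed here as 36 genes among the 19938 named genes on the arrays. A gene was a member when its single platform symbol was an integrin alpha chain, an integrin beta chain or a laminin alpha, beta or gamma chain, and where a gene had several probe sets the one with the highest mean stood for it. The members were 18 integrin alpha chains, 8 integrin beta chains and 10 laminin chains. The tissue was epidermis cut by laser from sections of the hairless hindpaw skin of 2 mouse lines. The first line overexpresses noggin, a secreted protein that binds and blocks bone morphogenetic proteins (BMPs), and the second overexpresses the ligand BMP4. Both transgenes are driven by the K14 promoter, which is active in basal keratinocytes, so every group carries a transgene, and skin without one was not analysed here. Each line gave 2 arrays, each from the pooled RNA of 3 animals with 8 to 10 strips of epidermis per animal. The labels give no strain, age or sex.

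The integrin receptor is a pair of one alpha and one beta chain that spans the membrane, with the extracellular part bound to matrix or to another cell and the inner part bound to the cytoskeleton. In basal keratinocytes the pair of Itga6 and Itgb4 sits in the hemidesmosome, where it binds the laminin that contains Lama3 and Lamb3 and is tied to keratin filaments by plectin and the Dst protein. Pairs built on Itgb1 bind collagens (with Itga2) and laminins (with Itga3 and Itga6) and connect to actin. Leukocytes carry their own chains, with Itgb2 and Itgb7 as beta subunits.

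The values are log2 probe set intensities, and the array medians lay between 6.04 and 6.06. All 5 basal and all 8 suprabasal and granular keratinocyte markers lay above the upper quartile of every array. Markers of other tissues were present too, with all 6 dermal fibroblast markers and 7 of 8 skeletal muscle markers above the median of every array. The probe sets for Nog and Bmp4 do not check the labels, since it is not stated which part of either transcript the constructs contain. Nog had log2 values of 5.92 and 5.99 in the noggin arrays and 6.13 and 6.04 in the BMP4 arrays, and Bmp4 had 7.77 and 7.86 in the noggin arrays and 8.22 and 8.03 in the BMP4 arrays. The BMP4 replicate 1 array stood apart in marker genes, as described with the leukocyte chains.

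Differences of mean intensity between noggin and BMP4 epidermis were small for most integrin and laminin genes, as for most named genes. The differences below are noggin minus BMP4 on the log2 scale. They ran from -0.52 for Itga2, the collagen-binding alpha chain, to 0.48 for Itgax, the alpha chain of dendritic cells, and none reached 1.5-fold in either direction. The mean was higher in noggin for 18 members and lower for 18, with a median difference of 0.0068, against -0.0064 over all named genes. The median size of a member's difference was 0.10 log2 units, and that of all named genes 0.087. The 95% interval of the difference lay within 1 log2 unit, or a doubling, on either side of 0 for 35 of the 36 members, against 95.7% of all named genes. The exception was Itgax, whose interval ended at 1.004. With 2 arrays a group, differences of the size that most members showed could not be resolved.

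No member passed the test. Limma gave an adjusted p below 0.05 for 0 of the 36 members and for 0% of the 35556 probe sets, and the smallest adjusted p of a member was 0.808, for Itga2. At an unadjusted p below 0.05 limma gave 2 members, Itga2 lower and Itgae higher in noggin, where 4.28% of all named genes and 5.61% of all probe sets lay below that level. The 2 groups of arrays did not overlap for 10 members. The 5 higher in noggin were Itga6, Itgae, Itgax, Itga2b and Itga11, and the 5 lower were Itgb4, Lamb3, Itga2, Itga3 and Lama5. The same was true of 33.6% of all named genes, 15.7% with noggin higher and 17.9% with noggin lower. The members' counts are close to these shares. For 29 of the 36 members the wider of the 2 gaps between replicate arrays was at least as large as the difference between the groups, against 78.1% of all named genes.

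**Figure D1:**
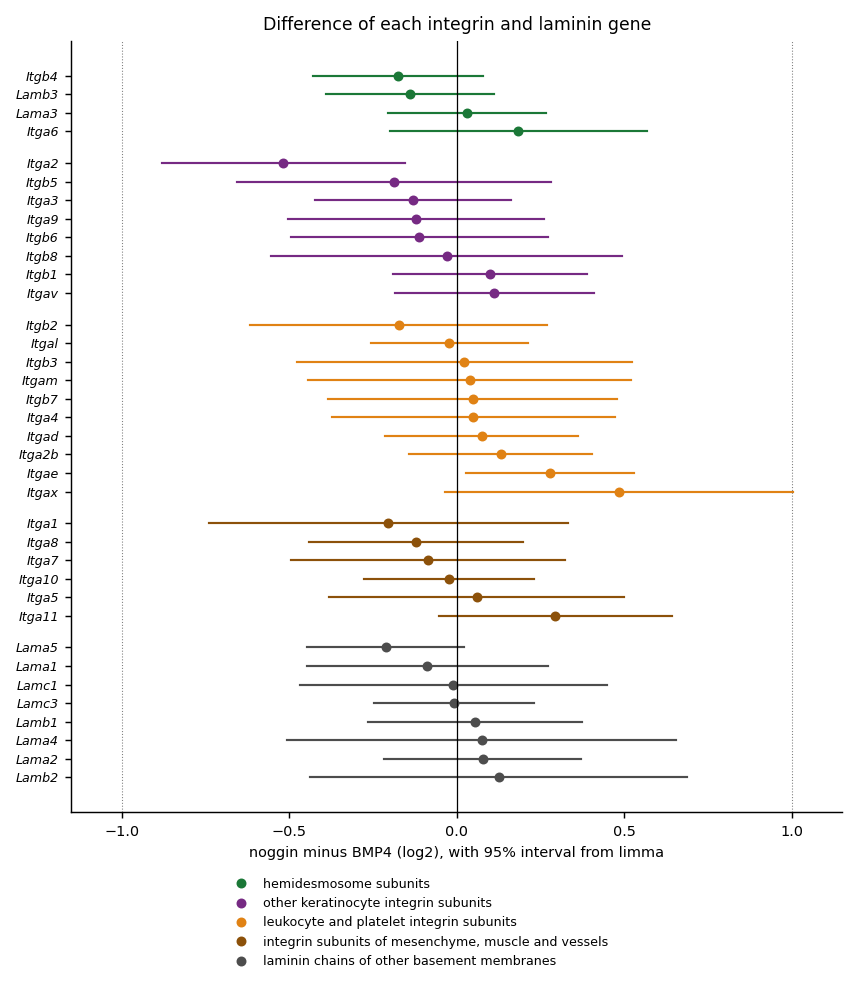
Difference of log2 intensity, noggin minus BMP4, for the 36 integrin and laminin genes in 5 roles (colours). Points are differences of the means of 2 arrays each, bars are 95% intervals from limma, and the dotted lines mark 1 log2 unit. The bars of Itga2 and Itgae stop short of 0, and the bar of Itgax alone reaches the dotted line.

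Non-overlapping groups and an unadjusted p below 0.1 were found together in Itga2, Itgae, Itgax, Lama5 and Itga11. The promoters of those in the RefSeq promoter table are shown because their genes are the ones whose values come closest to a difference. The table held 23 of the 36 members, Itgae not among them. Each sequence is the 250 bases before the RefSeq transcript start in GRCm38.p6, read 5′ to 3′ on the gene's strand, with matches to any of 4 motifs in capitals.
Itga2 (chr13:114932101-114932350, - strand): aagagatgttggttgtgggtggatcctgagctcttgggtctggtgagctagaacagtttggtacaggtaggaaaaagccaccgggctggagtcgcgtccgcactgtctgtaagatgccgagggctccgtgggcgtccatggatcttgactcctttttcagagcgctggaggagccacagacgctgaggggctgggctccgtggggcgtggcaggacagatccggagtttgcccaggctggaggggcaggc
Itgax (chr7:128129300-128129549, + strand): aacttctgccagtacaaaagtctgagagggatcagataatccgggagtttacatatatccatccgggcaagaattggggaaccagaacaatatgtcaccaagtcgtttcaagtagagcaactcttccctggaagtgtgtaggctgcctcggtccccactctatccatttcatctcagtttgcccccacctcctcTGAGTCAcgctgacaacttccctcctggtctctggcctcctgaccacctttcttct
Lama5 (chr2:180225860-180226109, - strand): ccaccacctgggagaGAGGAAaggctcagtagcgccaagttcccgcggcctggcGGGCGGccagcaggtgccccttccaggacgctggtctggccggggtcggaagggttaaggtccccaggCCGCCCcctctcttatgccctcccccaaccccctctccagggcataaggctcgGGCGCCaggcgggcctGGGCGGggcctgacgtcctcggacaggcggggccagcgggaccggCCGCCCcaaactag
Itga11 (chr9:62677605-62677854, + strand): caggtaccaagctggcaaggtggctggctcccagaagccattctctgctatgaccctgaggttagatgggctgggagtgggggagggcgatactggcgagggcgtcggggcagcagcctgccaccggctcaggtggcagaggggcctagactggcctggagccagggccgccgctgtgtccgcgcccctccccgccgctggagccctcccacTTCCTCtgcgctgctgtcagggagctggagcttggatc
The motifs were searched on both strands. They were the AP-1 site TGANTCA, the GC box GGGCGG, the GC-rich element GGCGCC known from BMP-responsive SMAD targets, and GAGGAA. The last is a longer form of the GGAA core bound by Ets factors, and GGAA alone was not searched. The promoter of Itga2 held none of the 4. That of Itgax held 1 AP-1 site, 56 bases before the start, where 6.75% of all 32851 promoters of this length hold one. The Lama5 promoter held 4 GC boxes, 1 GGCGCC element and 1 GAGGAA match. At least 1 match to these motifs is held by 32.7%, 9.59% and 23.3% of all promoters, in that order. The Itga11 promoter held 1 GAGGAA match on the opposite strand. The base composition of these windows differed, with 60.8% G and C in Itga2, 50% in Itgax, 72.4% in Lama5 and 68.4% in Itga11, against a median of 52.4% in all promoters. A match describes the letters and is not a bound site.

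In the hemidesmosome the receptor chains Itga6 and Itgb4 differed in opposite directions, both by less than the test could resolve. Itgb4, the beta chain with the long inner part that reaches plectin, had log2 values of 8.41 and 8.30 in the noggin arrays and 8.54 and 8.51 in the BMP4 arrays. The noggin values were thus both below the BMP4 values, with a difference of -0.18 (95% interval -0.43 to 0.08, limma adjusted p = 0.934). Itga6, its alpha partner, had 10.28 and 10.59 in the noggin arrays and 10.24 and 10.27 in the BMP4 arrays. Noggin replicate 1 was barely above the BMP4 arrays, and noggin replicate 2 carried the difference of 0.18 (interval -0.20 to 0.57, adjusted p = 0.951), which was 0.026 without that array. The difference of Itgb4 ranged from -0.23 to -0.12 on leaving out each array in turn.

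The laminin chains of the hemidesmosome were close to level. Lamb3, the beta chain, had 6.78 and 6.68 in the noggin arrays and 6.88 and 6.86 in the BMP4 arrays, so that the noggin values were again the lower pair, with a difference of -0.14 (interval -0.39 to 0.11, limma adjusted p = 0.946). Lama3, the alpha chain, had 7.90 and 7.86 in the noggin arrays and 7.83 and 7.86 in the BMP4 arrays. Its groups overlapped, and the difference was 0.03 with an interval from -0.20 to 0.27, the narrowest of the 4 hemidesmosome genes. The gap between replicates was 0.035 in noggin and 0.030 in BMP4.

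No other measured protein that anchors the basal cell passed the test either. The mean was lower in noggin for 5 of 6 measured partners, and the median of the 6 differences was -0.13, but with noggin replicate 1 left out it was -0.044, and with BMP4 replicate 2 left out -0.070. In 2 of the 6 partners the groups were separate with noggin lower, as in 17.9% of all named genes. Those were Col17a1, the transmembrane collagen of the hemidesmosome, with 8.35 and 8.34 in the noggin arrays against 8.48 and 8.52 in the BMP4 arrays, and Col7a1, the anchoring fibril collagen, with 7.06 and 6.91 in the noggin arrays against 7.10 and 7.20 in the BMP4 arrays. None of the 6 passed in limma, the smallest adjusted p being 0.939. The basal keratinocyte markers, Col17a1 among them, had a median difference of -0.10, 4 of 5 being lower on average in noggin. Krt14 had 12.25 and 12.25 in the noggin arrays and 12.42 and 12.36 in the BMP4 arrays. The groups overlapped for Krt5, Trp63 and Krt15. Krt15 differed by 0.014 the other way, with 10.61 and 9.86 in the noggin arrays and 10.36 and 10.08 in the BMP4 arrays. Fewer basal cells in a strip and less RNA per basal cell cannot be told apart in these pooled tissue samples, here or in the results below.

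Itga2 had the largest difference of all 36 members and the smallest p. The gene encodes the alpha chain that pairs with Itgb1 as a collagen receptor of basal keratinocytes. It had log2 values of 7.36 and 7.64 in the noggin arrays and 7.97 and 8.05 in the BMP4 arrays, 7.50 ± 0.20 and 8.01 ± 0.054 on average (SD, n = 2 each). The noggin values were clear of the BMP4 values, and BMP4 epidermis was 1.43-fold above noggin epidermis. The difference of -0.52 had an interval from -0.88 to -0.16, with an unadjusted p of 0.0164 and an adjusted p of 0.808 in limma. It stayed between -0.66 and -0.38 when each array was left out in turn, although the unadjusted p then reached 0.0529 and 0.0759 when BMP4 replicate 1 or BMP4 replicate 2 was the one left out. Its neighbour in the genome, Itga1, the other collagen-binding alpha chain at that place, had 4.90 and 4.77 in the noggin arrays and 4.79 and 5.28 in the BMP4 arrays, with overlapping groups. Cell cycle genes were lower on average in noggin on the same arrays, 14 of 14 genes, with -0.58 as their median difference (-0.38 without BMP4 replicate 1). Groups were separate with noggin lower for 11 of the 14, beside 17.9% of all named genes. All 14 cell cycle genes were highest in BMP4 replicate 1, and none passed in limma (smallest adjusted p = 0.636). Their part in the value of Itga2 was not tested.

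The chains that go with Itga2 had smaller differences. Itgb1, the common beta chain, had 9.70 and 9.87 in the noggin arrays and 9.66 and 9.71 in the BMP4 arrays, with a difference of 0.10 (interval -0.19 to 0.39, limma adjusted p = 0.968) and groups that overlapped. Without noggin replicate 2 it was 0.011. Itga3, the laminin-binding partner of Itgb1, had 7.14 and 7.26 in the noggin arrays and 7.26 and 7.40 in the BMP4 arrays. Its noggin arrays lay below the BMP4 arrays with almost no gap between noggin replicate 2 and BMP4 replicate 1, and the difference was -0.13 (interval -0.42 to 0.16, adjusted p = 0.951), or -0.065 without BMP4 replicate 2. Whether Itga2 differs from Itgb1 or Itga3 in its response was not tested.

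Among the remaining keratinocyte chains no groups were separate. Itgav, the alpha chain that pairs with Itgb5, Itgb6 and Itgb8 to bind vitronectin or to activate latent TGF-beta, differed by 0.11 (interval -0.19 to 0.41), or by 0.034 without noggin replicate 2. Itgb5 differed by -0.19, and that value rested on noggin replicate 2, since the difference was 0.00019 without it. Itgb6, a chain of wounded and activated epithelium, differed by -0.11 with 6.32 and 6.38 in the noggin arrays and 6.62 and 6.31 in the BMP4 arrays, so that BMP4 replicate 1 alone was high. Itgb8 differed by -0.03 and Itga9, a receptor chain for tenascin and fibronectin variants, by -0.12. Over the 8 keratinocyte chains outside the hemidesmosome 6 means were lower in noggin. The median difference was -0.12, and adjusted p lay from 0.808 to 0.999 in limma.

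**Figure D2:**
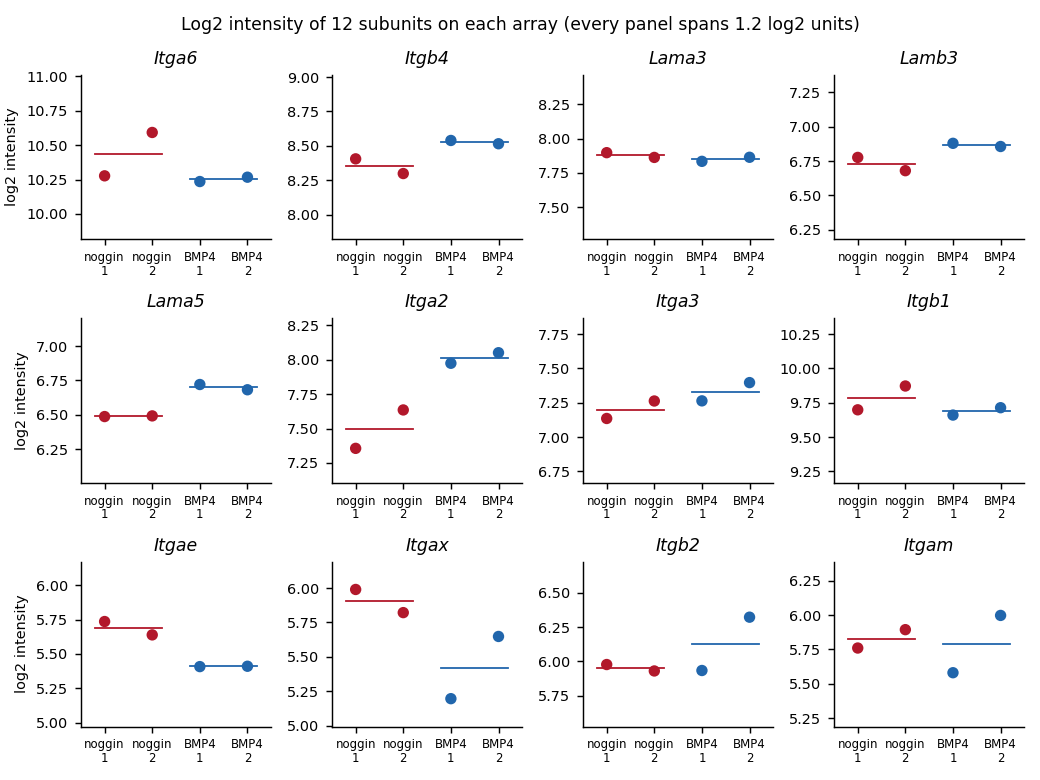
Log2 intensity of 12 integrin and laminin genes on the 2 noggin arrays (red) and the 2 BMP4 arrays (blue), with lines at the group means and the same span of 1.2 log2 units in every panel. The noggin points of Itga2 lie at 7.36 and 7.64, below BMP4 points at 7.97 and 8.05, whereas Lama3 is level and BMP4 replicate 1 is the low point of Itgax.

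Of the 8 other laminin chains only Lama5 had separate groups, with noggin lower, as in 17.9% of all named genes. Lama5 is the alpha chain of the laminins found along the whole epidermal basement membrane beside the hemidesmosomal one, where it joins Lamb1 or Lamb2 and Lamc1. It had 6.49 and 6.49 in the noggin arrays and 6.72 and 6.68 in the BMP4 arrays. The gap between replicates was 0.0049 in noggin and 0.038 in BMP4, well inside the distance between the groups. The difference was -0.21 (interval -0.45 to 0.02, limma unadjusted p = 0.0664 and adjusted p = 0.892), and it ranged from -0.23 to -0.19 on leaving out each array. The groups overlapped for its usual partners, Lamb1 with a difference of 0.05, Lamb2 with 0.12 and Lamc1 with -0.01. Each of these 3 differences had either sign on leaving out an array. Lamc3 differed by -0.01 with all 4 arrays between 6.94 and 6.99, and Lama1, the embryonic alpha chain, by -0.09. Over the 8 chains the means split evenly, 4 higher and 4 lower in noggin, and the median difference was 0.022.

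The laminin chains Lama4, Lamb2 and Lamc1 varied more between the 2 BMP4 arrays than between the groups. Lama4, the alpha chain of vessel walls, had 6.45 and 6.46 in the noggin arrays and 6.11 and 6.66 in the BMP4 arrays. Lamb2 had 7.15 and 7.12 in the noggin arrays and 6.74 and 7.27 in the BMP4 arrays, and Lamc1 had 7.81 and 7.95 in the noggin arrays and 7.70 and 8.08 in the BMP4 arrays. In these 3 genes BMP4 replicate 1 was the lowest and BMP4 replicate 2 the highest of the 4 arrays. The same order was seen in 7 members in all, or 19.4% of them, against 7.85% of all named genes, and the other 4 were the leukocyte chains Itga4, Itgam, Itgb7 and Itgad. All 6 dermal fibroblast markers also had this order, with Dcn, a matrix proteoglycan, at 11.41 and 11.17 in the noggin arrays and 11.15 and 11.60 in the BMP4 arrays. The part of dermal or vascular RNA in these values was not tested. Lama2, the alpha chain of muscle and nerve, differed by 0.08 with overlapping groups, and by 0.0037 without BMP4 replicate 1. Skeletal muscle markers had a median difference of 0.73, all 8 being highest in noggin replicate 1, and leaving out that array gave 0.21 and leaving out BMP4 replicate 1 gave 0.16. Groups were separate for 1 of the 8 muscle markers, with noggin higher, as in 15.7% of all named genes. None of the 8 passed in limma (smallest adjusted p = 0.927).

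**Figure D3:**
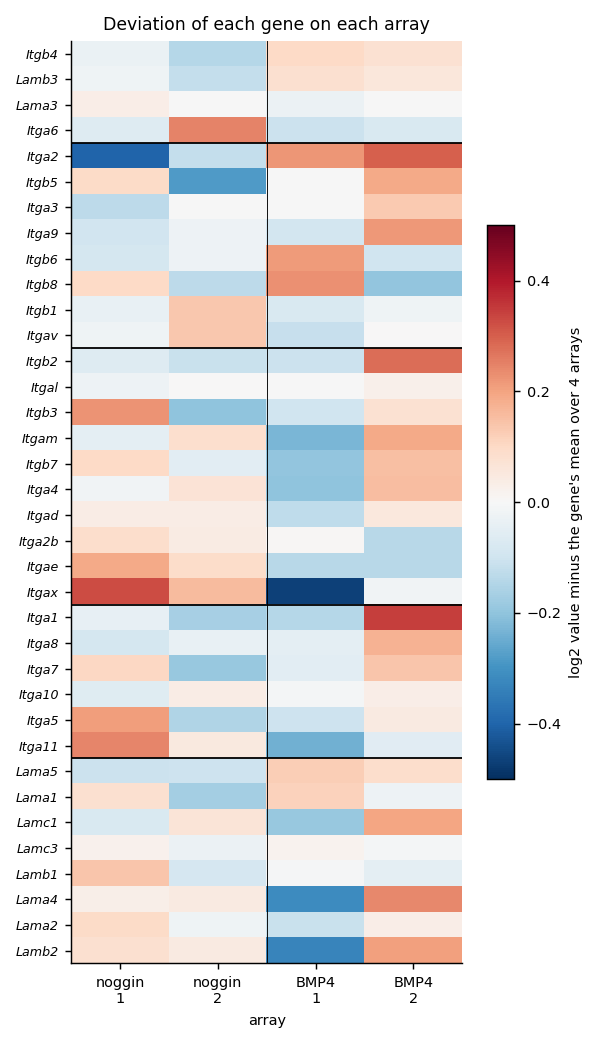
Log2 value of each of the 36 members on each array minus the gene's mean over the 4 arrays (red above, blue below the mean), in the order of the 5 roles, with the 2 noggin arrays left of the 2 BMP4 arrays. Lama4, Lamb2 and Itgam are low in BMP4 replicate 1 and high in BMP4 replicate 2, while Itga2 and Lama5 split by group.

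Of the 10 leukocyte and platelet chains 8 had a higher mean in noggin and 2 a lower one, and none passed the test. The groups were separate for 3 of the 10, Itgax, Itgae and Itga2b, all with noggin higher. Groups were separate in this direction in 15.7% of all named genes, and in either direction in 33.6%. The median difference of the 10 chains was 0.048, and -0.052 without BMP4 replicate 1. Itgax, the CD11c chain of dendritic cells and Langerhans cells, had 5.99 and 5.82 in the noggin arrays and 5.20 and 5.65 in the BMP4 arrays. The noggin values were both higher, with a difference of 0.48 (interval -0.04 to 1.004, limma unadjusted p = 0.0611 and adjusted p = 0.879), but leaving out BMP4 replicate 1 gave 0.26 and leaving out BMP4 replicate 2 gave 0.71. Itgae, the CD103 chain that holds T cells in epithelium by binding E-cadherin, had 5.74 and 5.64 in the noggin arrays and 5.41 and 5.41 in the BMP4 arrays. Its difference of 0.28 (interval 0.03 to 0.53, unadjusted p = 0.0363, adjusted p = 0.871) ranged from 0.23 to 0.33 on leaving out each array, with an unadjusted p of 0.0606 to 0.131. Itgb7, the beta partner of Itgae, differed by 0.05 with overlapping groups.

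Itgb2, the beta partner of Itgax, Itgal, Itgam and Itgad, had 5.98 and 5.93 in the noggin arrays and 5.93 and 6.32 in the BMP4 arrays. Its difference was -0.17 (interval -0.62 to 0.27), and BMP4 replicate 2 alone was high. Itgam, the CD11b chain of myeloid cells, had 5.76 and 5.89 in the noggin arrays and 5.58 and 6.00 in the BMP4 arrays, with a difference of 0.04. Itgal, the lymphocyte chain, was level between 5.42 and 5.47 on all arrays. The platelet chains Itga2b and Itgb3 differed by 0.13 and 0.02, and Itga4, a lymphocyte chain that pairs with Itgb1 or Itgb7, by 0.05. Only Itga2b of the 10 leukocyte and platelet chains lay above the median of every array, so most of them were dim, and whether they were above background is unknown.

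No marker of the cells that carry these chains passed in limma, the smallest adjusted p being 0.848 for the Langerhans cell and myeloid list and 0.874 for the T cell list. For Langerhans cells and myeloid cells, 7 of 9 markers were higher on average in noggin and the median difference was 0.67, or 0.29 without BMP4 replicate 1. Relative to each gene's mean their median was 0.26 and 0.42 in the noggin arrays and -0.81 and 0.15 in the BMP4 arrays. All 8 T cell markers were higher on average in noggin. Their median difference was 0.21, or 0.11 without noggin replicate 2, with medians relative to each gene's mean of -0.0060 and 0.31 in the noggin arrays and -0.27 and -0.029 in the BMP4 arrays. The 10 leukocyte and platelet integrin chains spanned a narrower range, at 0.062 and 0.041 in the noggin arrays and -0.13 and 0.065 in the BMP4 arrays. BMP4 replicate 1 was thus the low array for both marker lists and for these chains. Cd207, the langerin of Langerhans cells, had 7.21 and 7.28 in the noggin arrays and 6.48 and 6.86 in the BMP4 arrays. Cd3g, a T cell receptor chain, had 7.51 and 7.67 in the noggin arrays and 6.42 and 7.16 in the BMP4 arrays. Each was the marker of smallest p in its list. In the myeloid list Cx3cr1 and Fcer1g went the other way, by -0.090 and -0.034, and Cd68 differed by 0.097 with overlapping groups. The smallest T cell difference was 0.048, for Cd247, against 0.80 for Cd3g. Neutrophil markers were mixed, 3 of 7 higher on average in noggin and a median difference of -0.055, and Ly6g, the defining one, lay below the lower quartile of every array. The part of leukocyte number in the values of Itgax and Itgae was not tested.

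**Figure D4:**
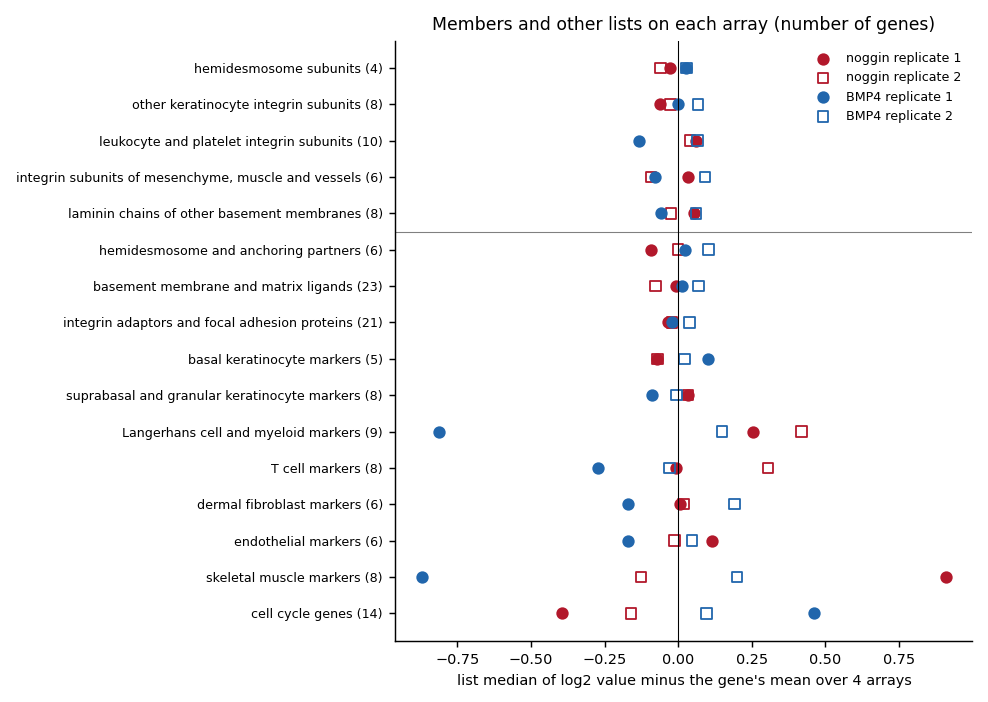
Median over each gene list of log2 value minus the gene's mean over 4 arrays, for the 5 roles of integrins and laminins (above the grey line) and for partner and marker lists (below it). Red marks are noggin arrays and blue marks BMP4 arrays, and open squares are the replicate 2 arrays. The medians of the members stay between -0.13 and 0.091, whereas those of the Langerhans cell and myeloid, muscle and cell cycle lists spread further.

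The integrin chains of mesenchyme, muscle and vessels were dim, none of the 6 lying above the median of every array. Itga11, a collagen receptor chain of fibroblasts, had 5.86 and 5.66 in the noggin arrays and 5.38 and 5.56 in the BMP4 arrays, a higher pair in noggin. The difference was 0.29 (interval -0.05 to 0.64, limma unadjusted p = 0.0793 and adjusted p = 0.904). Endothelial markers had a median difference of 0.14, but leaving out noggin replicate 1 gave 0.016 and leaving out BMP4 replicate 1 gave 0.045. That of dermal fibroblast markers was -0.021, and it lay between -0.20 and 0.16 on leaving out each array. Itga5, the fibronectin receptor chain, differed by 0.06, Itga7, the muscle laminin receptor chain, by -0.09, Itga8 by -0.12 and Itga10 by -0.02, all with overlapping groups.

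The proteins that link integrins to the cytoskeleton and the other matrix ligands were likewise without a called gene. Of 21 measured adaptors and focal adhesion proteins 7 means were higher and 14 lower in noggin, and the median difference was -0.037, or 0.011 without BMP4 replicate 2. Groups were separate in 8 of the 21, 2 with noggin higher and 6 with noggin lower, beside 33.6% of all named genes. Parva, the parvin that joins integrin-linked kinase to actin, had 7.12 and 7.32 in the noggin arrays and 7.65 and 7.54 in the BMP4 arrays (difference -0.38, limma unadjusted p = 0.0318 and adjusted p = 0.867), and Actn1, an actin crosslinker, differed by 0.26 the other way. Of 23 measured matrix and basement membrane genes 8 means were higher and 15 lower in noggin, and the median difference was -0.030, or -0.092 without noggin replicate 1. Groups were separate in 4 of the 23, all with noggin lower, as in 17.9% of all named genes. The genes of smallest p there were Dag1, the dystroglycan receptor for laminin, at -0.17 and Col4a1, a collagen of all basement membranes, at -0.19. Both had separate groups (limma adjusted p of 0.936 and 0.939). Postn, a dermal matrix protein, had the largest difference of these genes, but its values of 7.82 and 9.68 in the noggin arrays and 6.37 and 8.42 in the BMP4 arrays overlapped.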

How the data were processed

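RNA of laser-captured epidermis was amplified by the NuGEN pico protocol and hybridised to 4 arrays, per the labels' protocols. The authors deposited log2 intensities, made with Affymetrix Expression Console and RMA per the submitters' processing notes, which name no version. RMA as a method equalizes the arrays' distributions and compresses changes of dim probe sets. Of 35556 probe sets 21789 had 1 symbol. All 36 members had the same symbol in the GRCm38.p6 gene table. Itgad had 2 probe sets, and 3 that name Itgam beside a second gene were not used. Noggin was compared with BMP4 with limma 3.58.1 (R 4.3.3), a two-sided fit of group alone on every probe set. It had 2 residual and 2.085 prior degrees of freedom and Benjamini-Hochberg adjustment. A run on simulated data planted differences of 1 log2 unit or more, larger than that of any member. It does not show whether differences of the members' size would be called. Tried in place of the main fit were a replicate block, an intensity trend, a filter on dim probe sets, cyclic loess, median centring, averaged probe sets and leaving out each array. Members, lists and rules were chosen with earlier results of these data known. The rule gave all arrays for the hemidesmosome genes, 8 set members (Itga2, Itga3, Itgb1, Itgb2, Itgam, Itgae, Itgax, Lama5) and any member with an unadjusted p below 0.05, and the 2 genes of smallest p from each partner list. Other printed values were picked after they were seen. Replicates are pools of different animals, and the number of arrays limits the precision. Batches and detection above background are unknown.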

Additional observations from a re-analysis of the deposited data

How the results depend on the processing

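No member passed an adjusted p of 0.05 under any of the 10 alternatives (limma), the smallest adjusted p of a member in each lying between 0.613 and 0.9995. The count at an unadjusted limma p below 0.05 was 1 with the replicate number as a block and 1 with an intensity trend in eBayes (Itga2 in both). It was 2 with the filter on dim probe sets and with median centring (Itga2 and Itgae in both). With averaged probe sets it was 3 (Itga2, Itgae and Itgax), and with cyclic loess 4 (Itga2, Itgae, Itgax and Itga11). With 3 arrays left the groups did not overlap for 20 to 26 members, since fewer arrays overlap less often. Nothing in the labels ties same-numbered arrays together, and their deviations correlated at -0.12. The replicate block changed no adjusted call, and in this balanced design it cannot change a difference. With all 4 arrays 35 of 36 members kept their direction, and Lamc3 was 0.0031 with cyclic loess. That count was largely fixed in advance. The block, the trend and the filter leave every difference unchanged, and averaging could alter only that of Itgad. Median centring shifts every difference by the same small amount. Itga2, Itgae, Itgax, Itga11, Lama5, Itgb4 and Lamb3 were among the 10 members with separate groups. Such members cannot change sign when 1 array is left out. On leaving out each array in turn, 16 members kept their direction, and 11 differences had the other sign without BMP4 replicate 1. The medians then ranged over -0.087 to -0.033 for the hemidesmosome genes, -0.084 to -0.072 for other keratinocyte chains, -0.052 to 0.19 for leukocyte and platelet chains, -0.11 to 0.025 for the chains of mesenchyme, muscle and vessels and -0.080 to 0.091 for other laminins. The cause was not tested. Of differences that kept their sign, Itga2b ranged from 0.059 to 0.20, Itga8 from -0.23 to -0.011, Itga11 from 0.20 to 0.39 and Lama3 from 0.014 to 0.048. The 20 differences that changed sign ranged as follows: Itga1 -0.45 to 0.039, Itga10 -0.072 to 0.024, Itga4 -0.13 to 0.23, Itga5 -0.12 to 0.24, Itga7 -0.23 to 0.061, Itga9 -0.28 to 0.033, Itgad -0.014 to 0.16, Itgam -0.17 to 0.25, Itgb2 -0.37 to 0.020, Itgb3 -0.19 to 0.23, Itgb5 -0.38 to 0.00019, Itgb6 -0.27 to 0.043, Itgb7 -0.13 to 0.22, Itgb8 -0.24 to 0.18, Lama1 -0.21 to 0.037, Lama4 -0.20 to 0.35, Lamb1 -0.058 to 0.17, Lamb2 -0.14 to 0.39, Lamc1 -0.20 to 0.18, Lamc3 -0.035 to 0.017.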
